A study of Caenorhabditis elegans with 6 samples.

Results

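Genes for chromatin-modifying enzymes were examined in whole Caenorhabditis elegans given the sugar D-mannose or water. Members were taken by gene name: every gene with a value whose name begins with set-, met-, mes-, hda-, sir-, jmjd- or jmjc-, leaving out the metl- and metr- genes, which are named for other proteins. The rule found 60 names, of which set-33 has no value in any library, so that 59 of 45729 genes with values are members. The worms were of N2, the standard laboratory strain, with no transgene or mutation named in the labels. All were harvested at an age of 6 days from plates seeded with Escherichia coli OP50, and RNA of the whole organism was sequenced in 3 libraries from D-mannose-treated and 3 from water-treated worms. The labels give neither a dose nor the number of worms behind a library. Nor do the labels say that the libraries came from separate cultures, so p-values measure only the spread between these libraries, which may be technical.

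DNA in the nucleus is wound around histones, and enzymes that add or remove small chemical groups on the histone tails help set which genes are read. Proteins with a SET domain move methyl groups from S-adenosylmethionine to lysines, and many JmjC proteins take them off. Deacetylases and sirtuins remove acetyl groups, the sirtuins at the expense of NAD. In Caenorhabditis elegans many of these enzymes are known from the germline, where they mark genes for expression or silencing and carry that state from parent to embryo, and several are known for effects on lifespan and on the response to stress.

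The names cover 31 set genes, 2 met, 5 mes, 8 hda, 4 sir and 9 jmjd or jmjc genes. The domain annotation in the deposited tables was set against the names. It lists a SET domain for 26 members, 22 of them set genes, a histone deacetylase domain for all 8 hda genes, a SIR2 domain for all 4 sir genes, and a JmjC or cupin domain for all 9 jmjd and jmjc genes. For 12 members the annotation lists no enzyme domain of these kinds. Among them are set-10, set-14 and set-18, listed with a MYND zinc finger, and mes-6, listed with the WD40 repeats of a structural subunit. The label of a chromatin enzyme does not hold for mes-1, which is listed with a protein kinase domain and encodes a receptor tyrosine kinase-like protein that acts in early embryonic cell divisions. It is kept because the rule goes by name. All 59 members are protein coding in the Ensembl annotation.

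The libraries held 39900000 to 46000000 read equivalents after rounding. Values are FPKM, read fragments divided by listed gene length and an effective library size, so that levels of different genes can be set side by side per length. That size was below the summed read equivalents in mannose 1 (38000000 against 42700000) and water 3 (38600000 against 46000000). Elsewhere it was above them, as in mannose 3 (49400000 against 43700000). All genes summed to 961687 FPKM in mannose 1 and 1050890 in water 3, against 838651 to 880100 in the others. The part of this scaling in the values was not tested beyond upper-quartile scaling. A single read per kb of gene came to 0.0202 to 0.0263 FPKM, depending on the library. Mannose 1 and water 3 stood apart from the other 4 libraries. The first principal component of all tested genes, with 67.2% of the variance, set them against the rest, and 45 oocyte and germline marker genes summed to 12346 FPKM in mannose 1 and 13611 in water 3 against 4944 to 7481 in the others. The labels name both an Illumina TruSeq and a VAHTS Fast RNA-seq library kit and do not say which library was made with which. No oocyte or germline marker was at 0 in any library. In RNA of whole worms, fewer cells of a type and less RNA per cell cannot be told apart.

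No chromatin enzyme gene passed the test between mannose and water. The test was limma on log2(FPKM + 1) with Benjamini-Hochberg adjustment over 11237 genes that had at least 1 FPKM in at least 3 of the 6 libraries, and 47 of the 59 members entered it. Over all tested genes limma called 0 (0%) at an adjusted p under 0.05. Limma-voom on read equivalents called 0 as well. The lowest adjusted p among members was 0.9999 with limma. At an unadjusted p under 0.05 there was 1 member with limma, set-3, where 4.73% of all tested genes passed (532 genes). With limma-voom there were 2 members, set-3 and met-2 (unadjusted p = 0.0172 and 0.0422), of 535 genes. Differences between the group means on the log2(FPKM + 1) scale ran from −0.14 to 0.51 among the members, and the 95% interval reached a median of 0.44 to each side.

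Most members nevertheless had slightly higher means in mannose. Of the 47, 35 were higher in mannose and 12 lower, with a median log2 difference of 0.18, beside 54.5% of genes higher and a median of 0.01 over all tested genes. With upper-quartile scaling added to the values 30 members were higher (63.8%, median 0.12) and 42.5% of all genes. The size of this lead moved with single libraries. Without mannose 1 the median was 0.046 with 26 members higher, and without water 1 it was 0.084 with 30 higher, while without both mannose 1 and water 3 it was 0.13 with 35 higher. After removal of a trend with gene length from every library, 25 members were higher (53.2%) and the median was 0.035, beside 49.8% of all genes. Every mannose library lay above every water library for 6 members (set-3, met-2, mes-3, set-30, set-32 and set-10). That is 12.8% of those tested, beside 5.42% of all tested genes. Among members of at least 3000 listed bases the share was 15.4%, beside 12.6% of all tested genes of that length. Among shorter members it was 11.8%, beside 4.54%. Every mannose library lay below every water library for 0 members and for 5.31% of all genes.

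**Figure D1:**
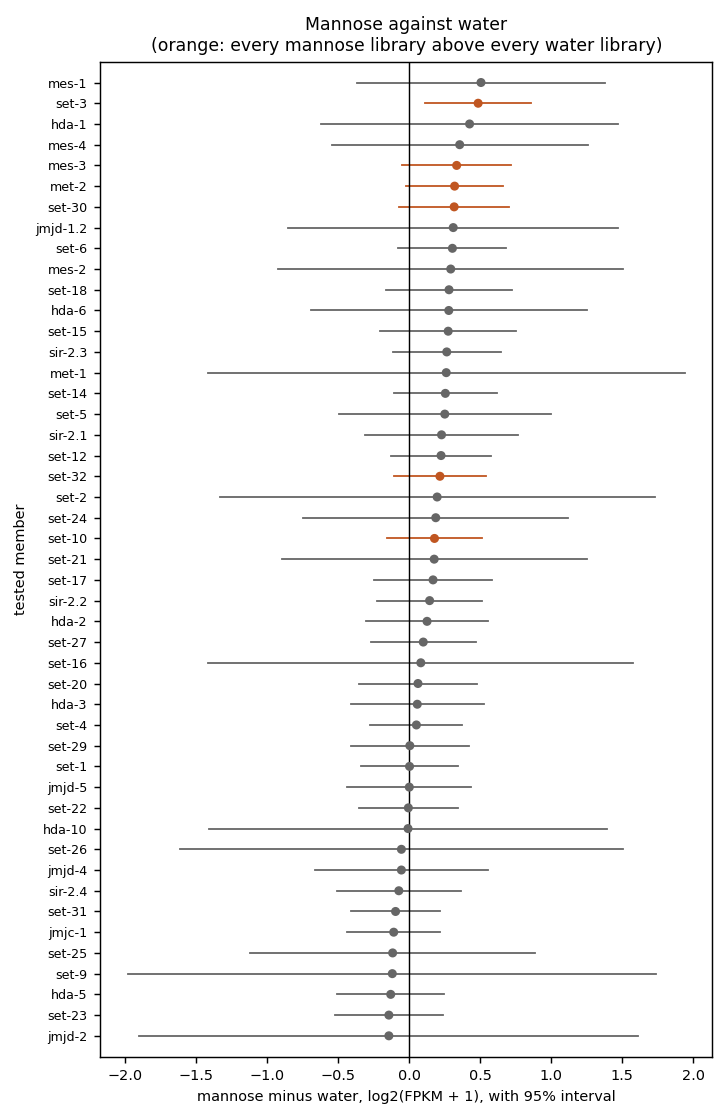
Mannose minus water for each of the 47 tested members on the log2(FPKM + 1) scale (x axis), ordered by size, with points for the limma estimate and lines for its 95% interval. Orange marks the 6 members whose groups did not overlap; the interval of set-3 alone lies wholly above 0.

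The SET domain gene set-3 (WBcel235 chromosome III, 9691027 to 9694574) had the smallest p of the members. It had 32.9, 26.8 and 28.3 FPKM in mannose 1, 2 and 3 and 18.4, 22.5 and 20.96 in the same order of the water libraries. Each mannose library was above each water library, and mannose 1 was the highest of all. The means were 29.3 ± 3.19 and 20.6 ± 2.08 FPKM (SD, n = 3), a log2 difference of 0.49 (standard error 0.15, limma unadjusted p = 0.0188, adjusted p = 0.9999). It was 0.42 without mannose 1 and water 3 and 0.43 with the length trend removed.

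The gene met-2 (III, 8375300 to 8380863) encodes the SETDB1-like enzyme that places the first methyl groups on H3K9, the mark of silent chromatin. Its FPKM was 32.3, 30.1 and 29.4 in mannose and 22.8, 27.5 and 22.8 in water, with the groups apart by the gap between 29.4 and 27.5. Means of 30.6 ± 1.502 and 24.4 ± 2.68 FPKM gave a log2 difference of 0.32 (standard error 0.14, limma unadjusted p = 0.0630, adjusted p = 0.9999). The difference was 0.086 once the length trend was removed; met-2 is listed with 4146 bases. Its partner in H3K9 methylation, set-25, which adds the third methyl group, went with other libraries. It had 7.02, 4.59 and 2.81 FPKM in mannose and 3.50, 3.82 and 9.03 in water, so that mannose 1 and water 3 were highest and the groups overlapped. The ratio of met-2 to set-25 therefore ran from 2.53 in water 3 to 10.5 in mannose 3. The set-32 gene (I, 9519244 to 9521275), which acts in heritable silencing by small RNAs, varied little: 15.8, 15.4 and 14.96 FPKM in mannose and 12.8, 12.6 and 13.9 in water. All mannose libraries were above all water libraries, at 15.4 ± 0.411 against 13.1 ± 0.736 FPKM, a log2 difference of 0.22 (standard error 0.13, limma unadjusted p = 0.156, adjusted p = 0.9999).

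Of the other members whose groups did not overlap, set-30 (X, 4999270 to 5003516) had 3.32, 3.47 and 4.34 FPKM in mannose and 3.101, 3.03 and 2.23 in water (limma unadjusted p = 0.0927). The gap between its groups, from 3.101 to 3.32 FPKM, was smaller than the spread within either. In set-10 (I, 15027717 to 15030711) the values were 7.10, 7.04 and 6.38 against 6.25, 6.30 and 5.26 FPKM. The lowest mannose and the highest water library were 6.38 and 6.30 there (limma unadjusted p = 0.243).

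The mes genes take their name from maternal-effect sterility, since embryos whose mothers lack them grow into sterile adults. MES-2, MES-3 and MES-6 form the worm's Polycomb complex, which methylates H3K27, with MES-2 as the catalytic subunit. The gene mes-3 (I, 4996835 to 5003202) had 25.3, 24.3 and 20.8 FPKM in mannose and 16.2, 19.01 and 19.97 in water. The groups met at 20.8 and 19.97 FPKM without overlapping, and the log2 difference was 0.34 (standard error 0.16, limma unadjusted p = 0.0763). It was 0.15 with the length trend removed. Its partner mes-2 (II, 14383969 to 14388454) had 31.9, 17.4 and 11.3 FPKM in mannose and 9.86, 12.2 and 27.3 in water. Here mannose 1 and water 3 were the highest libraries, and each group spanned most of the other. RNA of the 2 subunit genes thus did not keep a fixed ratio, and protein was not measured. The mes-2 value stood at 1.26 times that of mes-3 in mannose 1 and 1.37 in water 3, against 0.544 to 0.717 in the other 4 libraries.

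The third subunit, mes-6 (IV, 8511284 to 8513921), was listed at 0.509, 0.0357 and 0.0904 FPKM in mannose and 0.216, 0 and 0.0514 in water, and was not tested. Its listed span is covered to 97.8% by the model of cks-1 on the same strand, which had 113 to 148 FPKM. How reads shared by both models were assigned is not stated in these sources, and the value of mes-6 is uncertain for that reason. MES-4, which is no part of that complex, keeps H3K36 methylation on genes expressed in the germline. Its gene mes-4 had 36.3, 27.1 and 15.6 FPKM in mannose and 14.5, 17.6 and 27.6 in water, with mannose 1 and water 3 highest (limma unadjusted p = 0.372). The kinase-like mes-1 had the largest difference of the tested members, 0.51 (standard error 0.36). Its libraries held 6.96, 4.23 and 2.63 FPKM in mannose and 1.94, 2.37 and 4.32 in water, so that water 3 lay above 2 of the 3 mannose libraries. The difference was 0.22 without mannose 1. All 4 tested mes genes were highest in mannose 1 and lowest in water 1.

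The H3K36 methyltransferase gene met-1 (I, 4254197 to 4264699) was among the most variable members. It had 10.6, 3.98 and 2.36 FPKM in mannose and 1.62, 2.78 and 10.4 in water. Its highest library was 6.57 times its lowest, and the 2 highest came from different groups. The ratio of mes-4 to met-1 ran from 2.65 in water 3 to 8.98 in water 1. RNA of these genes for writers of a shared mark thus did not vary in proportion.

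H3K4 methylation, found at the starts of active genes, is placed by set-2, the SET1 enzyme of the COMPASS complex, by set-16, the MLL-like enzyme, and by the smaller set-17, which acts in the germline. Values of set-2 were 8.73, 3.43 and 2.07 FPKM in mannose and 1.71, 2.32 and 8.76 in water. Those of set-16 were 5.45, 1.91 and 1.67 in mannose and 1.25, 1.28 and 7.20 in water. In both genes mannose 1 and water 3 were far above every other library, and the difference between the groups was within their spread (limma unadjusted p = 0.763 and 0.897). The much more abundant set-17 went the other way, with 111, 131 and 132 FPKM in mannose and 129.8, 116 and 88.8 in water. Mannose 1 and water 3 were its 2 lowest libraries.

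SET-9 and SET-26 are a nearly identical pair with a PHD finger and a SET domain that bind methylated H3K4 and, for set-26, limit lifespan. In mannose set-9 (IV, 4307896 to 4317247) had 10.97, 2.75 and 2.60 FPKM and in water 2.68, 2.47 and 15.1. The other gene, set-26 (IV, 16646464 to 16655883), had 5.74, 1.504 and 1.62 FPKM in mannose and 1.35, 1.45 and 7.59 in water. Mannose 1 and water 3 stood far above the other 4 libraries in both. The ratio of set-9 to set-26 kept between 1.602 and 1.99 in all 6 libraries. Since the pair is so alike in sequence and the treatment of reads that match both is not given, their separate values are uncertain.

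H4K20 is methylated by SET-1, which adds the first methyl group and is needed for chromosome condensation, and by SET-4, which adds the next and acts on the X chromosomes in dosage compensation. The gene set-1 (III, 6450792 to 6452378) had the highest level of all members, with 158, 194 and 194 FPKM in mannose and 202, 183 and 159 in water. Both groups averaged 182 FPKM (SD 20.6 and 21.6, n = 3), and the 95% interval of the log2 difference ran from −0.34 to 0.35. The gene set-4 had 88.9, 95.6 and 94.6 FPKM in mannose and 97.3, 97.1 and 76.4 in water, with an interval from −0.27 to 0.38. In both genes mannose 1 and water 3 were the lowest libraries, opposite to set-2, set-16, met-1 and mes-2.

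**Figure D2:**
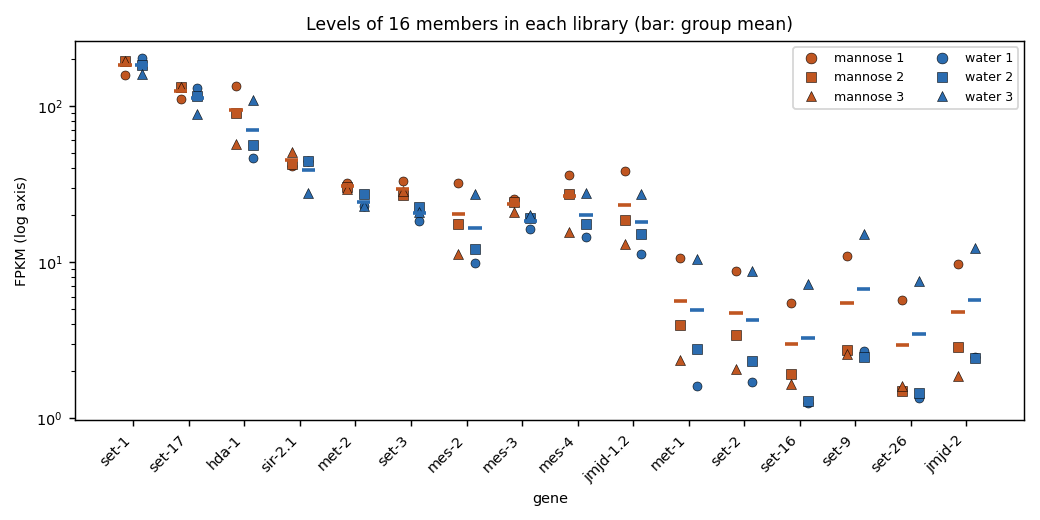
FPKM of 16 members in each library (log y axis), mannose in orange and water in blue, a symbol per library and a bar at each group mean. From met-1 to jmjd-2 mannose 1 and water 3 lie far above the other 4 libraries, in set-1 and set-17 they lie lowest, and in met-2, set-3 and mes-3 the groups do not overlap.

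The remaining set genes have less settled roles. The MYND finger gene set-14, whose span overlaps npp-19 by 2.04%, had 36.2, 37.9 and 30.7 FPKM in mannose and 28.004, 32.3 and 27.03 in water (limma unadjusted p = 0.137). The muscle-expressed MYND gene set-18 had 3.29, 3.73 and 5.29 FPKM against 3.16, 3.50 and 2.79 (limma unadjusted p = 0.171). In each of them a water library reached above the lowest mannose library. Among genes on the X chromosome set-6 had 2.23, 2.62 and 2.44 FPKM in mannose and 1.78, 2.29 and 1.33 in water. For set-12 the values were 1.25, 1.76 and 1.03 against 1.03, 1.11 and 0.847, from as few as 57 read equivalents. The groups of set-6 overlapped through water 2 and those of set-12 through mannose 3 (limma unadjusted p = 0.0978 and 0.173).

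Some set genes hardly varied. The 6 libraries of set-31 lay between 28.6 and 33.1 FPKM, a range of 0.21 on the log2(FPKM + 1) scale and the narrowest of the tested members. Its highest value was in water 1 and its lowest in mannose 2. Next came set-32, described above, and then set-23, with 12.9, 13.2 and 15.7 FPKM in mannose and 16.6, 15.96 and 13.9 in water. The fifth most abundant member, set-22, had 48.7, 62.0 and 57.7 FPKM in mannose and 57.1, 60.5 and 50.9 in water. Its listed span lies wholly within that of pap-1 on the same strand, as set-27 lies within cox-6B and set-29 within herc-1, so the values of these 3 are uncertain. The values of set-27 were 13.2 to 17.4 FPKM and those of set-29 24.7 to 34.0.

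The other tested set genes included the SPK domain genes set-5 and set-24, at 2.57 to 6.68 and 8.17 to 20.2 FPKM. With set-21, at 4.34 to 12.5 FPKM, they were highest in mannose 1 and water 3. Values of set-15 were 3.67, 3.56 and 2.04 FPKM in mannose against 2.05, 2.51 and 2.41, with only mannose 1 and 2 above the water libraries. The X-linked set-20 stayed between 1.98 and 3.17 FPKM, with overlapping groups.

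Class I histone deacetylases are the catalytic subunits of the NuRD and SIN3 repressor complexes. The NuRD deacetylase gene hda-1 (V, 14525389 to 14527413) had 134, 90.2 and 57.3 FPKM in mannose and 46.2, 56.2 and 109 in water. Mannose 1 and water 3 were highest, each group covered a wide range, and the log2 difference of 0.43 had a standard error as large, 0.43 (limma unadjusted p = 0.356). It was 0.13 without mannose 1 and 0.79 without water 3. Its relatives were steadier. The gene hda-2 had 32.7, 39.2 and 35.5 FPKM in mannose and 37.0, 35.7 and 26.2 in water, with its lowest values in the same 2 libraries in which hda-1 was highest. For hda-3, whose span overlaps mag-1 by 1.58%, they were 53.3, 53.3 and 37.6 against 39.5, 45.2 and 53.0. The ratio of hda-1 to hda-2 reached 4.12 in mannose 1 and 4.16 in water 3, and elsewhere it was 1.25 to 2.301.

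Of the class II deacetylases, hda-6, a relative of the mammalian tubulin deacetylase HDAC6, had 45.6, 29.3 and 19.6 FPKM in mannose and 17.1, 22.4 and 37.3 in water. The gene hda-10 had 18.4, 10.5 and 5.82 against 6.73, 7.27 and 23.1, and hda-5 stayed between 3.75 and 5.40 FPKM. All 3 were highest in mannose 1 and water 3. The same held for hda-4, known in the worm for acting with the factor MEF-2 in sensory neurons. It reached 2.59 FPKM in both of those libraries and 0.764 to 0.992 in the others, and so failed the filter on low values. The class IV gene hda-11 had 0.308 to 0.807 FPKM and was not tested.

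Sirtuins remove acetyl and other acyl groups with NAD as cosubstrate. The SIRT1 relative sir-2.1 (IV, 10363318 to 10366249), studied in the worm for lifespan and stress resistance, had 40.99, 42.3 and 50.9 FPKM in mannose and 44.1, 44.5 and 27.5 in water. Water 3 was far below the other 5 libraries, and the log2 difference was 0.23 (standard error 0.22, limma unadjusted p = 0.342). Without water 3 it was 0.0064. The SIRT6 and SIRT7 relative sir-2.4, which acts in stress responses, had 27.2, 33.3 and 36.9 FPKM in mannose and 38.3, 35.5 and 28.7 in water, with mannose 1 and water 3 lowest. The mitochondrial sirtuin genes sir-2.2 and sir-2.3 lie next to each other on the X chromosome. Values of sir-2.2 were 6.19, 5.64 and 6.38 against 5.48, 6.24 and 4.56 FPKM, and those of sir-2.3 were 1.72, 1.97 and 2.45 against 1.94, 1.44 and 1.24. The groups overlapped for all 4 sirtuins, and sir-2.3 had the smallest p of them (limma unadjusted p = 0.139).

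Many JmjC proteins are demethylases that use iron and 2-oxoglutarate. Not every member need be one, and jmjc-1 and jmjd-5 are listed with a cupin domain only. The gene jmjd-2 (II, 14234961 to 14243603), of the KDM4 family that acts on H3K9 and H3K36, had the widest range of all tested members, 2.22 on the log2(FPKM + 1) scale. It had 9.75, 2.85 and 1.85 FPKM in mannose and 2.48, 2.44 and 12.3 in water, with mannose 1 and water 3 far above each of the others. The 95% interval of its log2 difference, −1.90 to 1.61, was among the widest for that reason. The gene jmjd-1.2, of the PHF8 family and known in the worm for the mitochondrial stress response, had 38.2, 18.6 and 12.995 FPKM in mannose and 11.3, 15.2 and 27.3 in water. Its near relative jmjd-1.1 was listed at 0 in mannose 2 and at 0.101 to 0.338 FPKM elsewhere.

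The 3 members of the H3K27 demethylase family, jmjd-3.1, jmjd-3.2 and jmjd-3.3, all lie on the X chromosome and did not enter the test. Of these, jmjd-3.1 acts with JMJD-1.2 in stress and has a separate role in cell fate change. Its level was 0.944, 0.669 and 1.02 FPKM in mannose and 0.536, 0.636 and 0.914 in water. Its paralogs had 0.0647 to 0.445 FPKM. The KDM8 relative jmjd-5 was steady, at 27.6, 30.9 and 32.7 FPKM in mannose and 35.1, 32.6 and 24.3 in water, and its log2 difference was 0.00 with a 95% interval from −0.44 to 0.44. The gene jmjd-4 had 10.5 to 18.1 FPKM, and jmjc-1, the lowest tested jmjc or jmjd gene, had 1.47, 1.19 and 1.07 in mannose and 1.21, 1.31 and 1.74 in water.

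The members covered a wide range of levels. Mean FPKM over the 6 libraries was at least 100 for 2 members, at least 10 for 26 and at least 1 for 48. After set-1 and set-17 the highest were set-4, hda-1 and set-22. The 12 members left out of the test were hda-4, hda-11, jmjd-1.1, jmjd-3.1, jmjd-3.2, jmjd-3.3, mes-6, set-8, set-11, set-13, set-19 and set-28. Of these, set-19 reached 1.31 FPKM in mannose 1 and water 3 and 0.284 to 0.659 elsewhere, the order already seen in hda-4. The genes set-11, set-13 and set-28 had at most 0.514 FPKM. The lowest was set-8, listed at 0 in every library but water 2, where it had 3 read equivalents. At these levels no difference between the groups was tested.

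X-linked members stood at low levels. The X chromosome is largely silent in the worm's germline. Of the 59 members 14 are X-linked, and 7 of these 14 were tested, against 40 of the 45 autosomal members. Over all genes with values the shares tested were 24.7% on X and 24.6% on the autosomes. Those genes were not limited to protein-coding ones, as the members are, and chromosome IV alone held 19469 of them beside 5902 on X. The shares are thus no like background for the members. The tested X-linked members had mean FPKM of 1.17 to 5.75 with a median of 2.54, and the autosomal ones had a median of 16.9. Over all tested genes the medians were 5.33 on X and 16.7 on the autosomes. Median levels thus stood lower on X among the tested members and among all tested genes, and whether the gap differs between the 2 was not tested. With untested genes included, the medians over all genes were 0.0080 FPKM on X and 0 on the autosomes, with the same limit.

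Differences between the libraries often ran across the treatment groups. Mannose 1 and water 3 were the 2 highest libraries for 20 of the 47 tested members (42.6%), where all tested genes gave 28.6%. These 20 were hda-1, hda-5, hda-6, hda-10, jmjc-1, jmjd-1.2, jmjd-2, jmjd-4, mes-1, mes-2, mes-4, met-1, set-2, set-5, set-9, set-16, set-21, set-24, set-25 and set-26. They were the 2 lowest for 8 members (17.02%, all genes 21.5%), namely hda-2, jmjd-5, set-1, set-4, set-17, set-22, sir-2.1 and sir-2.4. The range over the libraries was over 1 on the log2(FPKM + 1) scale for 17 members (36.2%, all genes 23.3%).

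Among long members this order of the libraries was common. Of the 13 tested members with at least 3000 listed bases, 11 had mannose 1 and water 3 as their highest libraries (84.6%). The exceptions were met-2 and mes-3. Of all tested genes of that length 58.8% had this order. It held for 9 of the 34 shorter members (26.5%) and for 24.9% of all shorter tested genes. The median range of the 13 was 1.67 on the log2(FPKM + 1) scale, against 0.54 for the 34 shorter members. Over all tested genes of these lengths it was 1.09 and 0.58. Across the 47 members Spearman's rho between length and range was 0.64, and over all 11237 tested genes it was 0.21. Between length and a library's deviation from the mean of the 6 it was 0.71 in mannose 1 and 0.57 in water 3 across members. In the other 4 libraries it was −0.68 to −0.27. Over all tested genes it was 0.49, 0.12 and −0.25 in the mannose libraries, in order, and −0.51, −0.41 and 0.20 in water. The tilt is thus not particular to the members, and in mannose 2 its sign differs. These values are across genes of the same libraries, genes are not independent replicates, and length is itself the denominator of the FPKM.

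**Figure D3:**
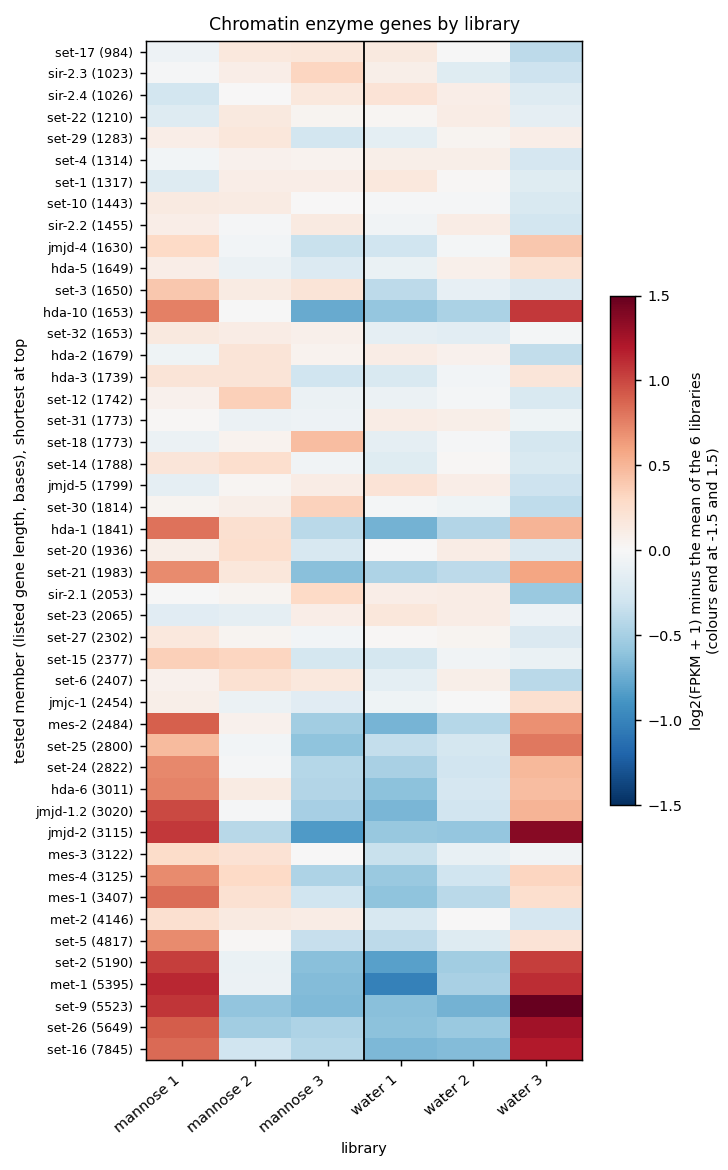
Deviation of each of the 47 tested members (y axis, with listed length in bases, shortest at the top) from its mean over the 6 libraries (x axis), in log2(FPKM + 1) units on a colour scale that ends at −1.5 and 1.5. Red cells gather at the bottom of mannose 1 and water 3, where the long genes met-1, set-2, set-9, set-16 and set-26 lie, while met-2 and mes-3 are pale in both.

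**Figure D4:**
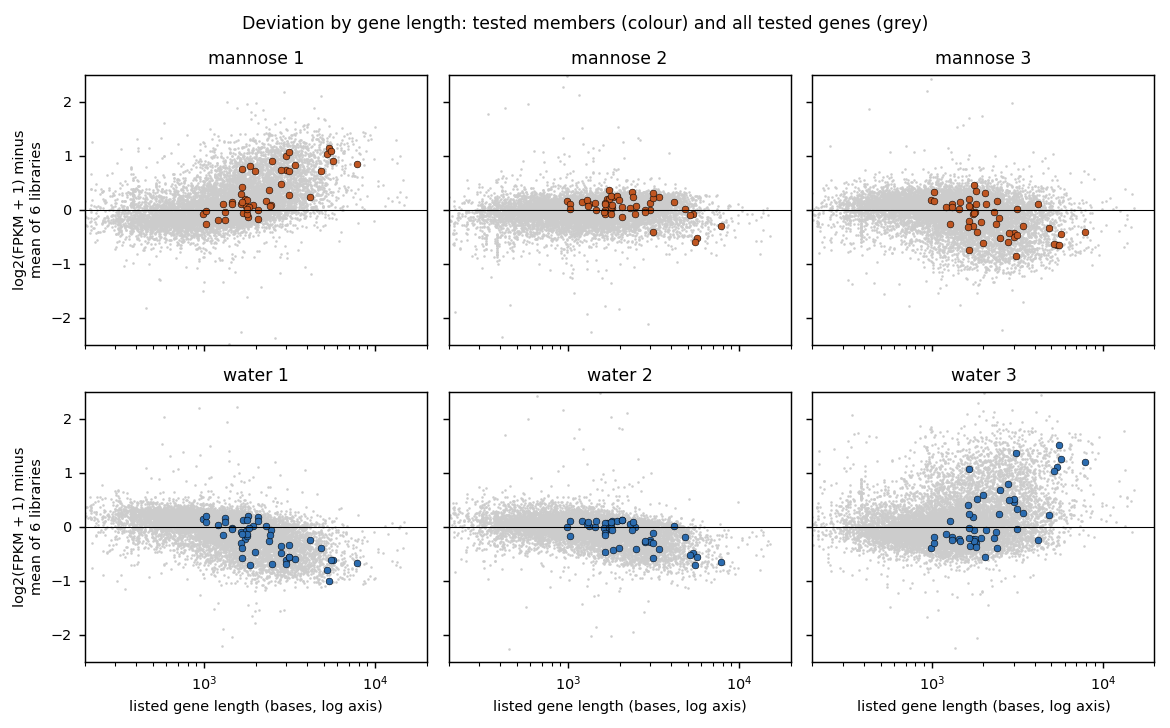
Deviation of tested genes from their mean over the 6 libraries in log2(FPKM + 1) units (y axis) against listed gene length in bases (log x axis), a panel per library, with all tested genes in grey and the 47 members in colour. Members tilt upward with length in mannose 1 and water 3 (rho 0.71 and 0.57) and downward in the other 4 panels. Over all tested genes rho is 0.49 in mannose 1, 0.20 in water 3 and 0.12 in mannose 2.

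Germline markers moved with the same 2 libraries. The median deviation of the 45 oocyte and germline markers was 0.96, 0.05 and −0.62 in the mannose libraries, in order, against −0.72, −0.34 and 0.79 in those given water. That of the 47 members was 0.18, 0.065 and −0.17 in mannose and −0.18, −0.041 and −0.049 in water. By sign the members' median matched that of the markers in 5 of the 6 libraries, though it was smaller, and in water 3 it lay below 0. The median of all tested genes matched the markers by sign in every library. It was 0.035, 0.018 and −0.0097 in mannose and −0.021, −0.0081 and 0.020 in water, so a match by sign is not particular to the members. Sperm markers lay at 0.25, −0.61 and −0.41 in mannose and 0.05, 0.12 and 0.63 in water, and 23 of 24 tested had lower means in mannose (median log2 difference −0.53). Their list, in which spe-9 and spe-42 were at 0 in at least 1 library, summed to 590 to 1075 FPKM in mannose and 926 to 1413 in water. Body wall muscle markers were lower for 13 of 15 (median −0.21), with sums of 1769 to 2507 against 2367 to 2436 FPKM. For hypodermis and cuticle 7 of 12 were lower (median −0.37), and the sums of 4676 to 5465 FPKM in mannose lay below those of 6375 to 7383 in water. Intestine and neuron markers had medians of −0.043 and 0.056. No tested marker was called by limma. The part of germline, sperm, muscle or hypodermis content, of gene length or of these 2 libraries in the values of the members was not tested beyond the differences given without mannose 1 and water 3 and with the length trend removed.

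Summed over each family, the enzyme genes did not differ beyond what 3 against 3 libraries can show. The 31 set genes summed to 688, 719 and 687 FPKM in mannose and 685, 672 and 625 in water. No water library reached a mannose library, and the exact two-sided permutation test gave p = 0.1, the smallest it allows with n = 3 per group. With upper-quartile scaling the difference of the means was 6.32 FPKM in place of 37.2. Totals of the hda genes were 227 ± 65.6 and 194 ± 55.5 FPKM (SD, n = 3), those of the mes genes 74.8 ± 25.3 and 57.7 ± 19.2, and those of the met genes 36.3 ± 5.88 and 29.3 ± 4.47. The sir genes summed to 85.3 ± 10.4 and 79.9 ± 15.4 FPKM and the jmjd and jmjc genes to 74.6 ± 18.3 and 71.1 ± 12.3. The exact permutation p of these 5 families was 0.2 to 0.7. Leaving out 1 library at a time moved the difference of the hda sums between 0.616 and 66.2 FPKM, that of the mes sums between 3.99 and 29.3 and that of the met sums between 3.61 and 9.18. It turned the sign for the sir genes, from −3.44 to 10.4 FPKM, and for the jmjd and jmjc genes, from −6.89 to 10.5. A few genes carry these sums: hda-1 held 39.1% of the hda total, met-2 held 83.8% of the met total and sir-2.1 held 50.5% of the sir total.

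Genes that work with these enzymes were read from 10 lists. The lists cover complex partners, readers of histone marks, other writers and erasers, remodellers and metabolic genes, mainly for S-adenosylmethionine and NAD. None of their 128 tested genes was called by limma. In mannose 103 were higher and 25 lower (80.5% higher, all genes 54.5%), with a median log2 difference of 0.17. An unadjusted p under 0.05 with limma was found for 10 (7.81%, all genes 4.73%). The lists lean to long genes: of the 51 partners with at least 3000 bases 46 were higher, with a median of 0.31, where 77.7% of all tested genes of that length were higher with a median of 0.18. With the length trend removed 80 of the 128 were higher and the median was 0.043, and without mannose 1 it was 0.028 with 68 of 126 higher. It was 0.064 without water 1 and 0.099 without water 2, and 0.33 and 0.34 without mannose 3 and without water 3. The groups did not overlap, with mannose higher, for 13 partners (10.2%, all genes 5.42%), and with mannose lower for 2 (1.56%, all genes 5.31%). For partners of at least 3000 bases the shares were 17.6% higher and 0% lower, beside 12.6% and 0.575% of all tested genes of that length. For shorter partners they were 5.19% and 2.60%, beside 4.54% and 5.89%. By list, 10 of 13 DREAM and synMuv genes were higher (median 0.19). The synMuv genes there include lin-8, lin-15A and lin-56 of class A beside those of class B. Also higher were 7 of 7 dosage compensation genes (0.27) and 17 of 19 readers of methylated histones and heterochromatin genes (0.12). So were 12 of 16 acetyltransferase and bromodomain genes (0.18), 6 of 7 other demethylases (0.18) and 15 of 17 remodellers (0.20). Removing the length trend left medians of 0.022 to 0.12 in these 6 lists. Without mannose 1 their medians were 0.043 to 0.10, with 7 of 13 DREAM and synMuv genes and 3 of 6 dosage compensation genes higher. Without water 1 they were 0.079 to 0.089, with 9 of 13 and 4 of 7 of those genes higher, and without mannose 3 or water 3 they were 0.27 to 0.65.

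The NuRD and SIN3 partners of the class I deacetylases were higher in mannose for 12 of 13 genes, with a median of 0.29 (0.16 with the length trend removed, 0.081 without mannose 1, 0.53 without mannose 3 and 0.62 without water 3). The corepressor gene sin-3 had 25.2, 19.9 and 25.2 FPKM in mannose, while the water libraries held 12.98, 18.3 and 14.1. The NuRD subunit gene dcp-66 had 21.3, 16.1 and 16.97 against 10.2, 11.5 and 13.4. Both had every mannose library above every water library (limma unadjusted p = 0.0181 and 0.0161, adjusted p = 0.9999). Their log2 differences of 0.60 and 0.59 were 0.35 and 0.37 with the length trend removed. Their enzyme hda-1 did not share that pattern, since its groups overlapped. Partners of the H3K4 methyltransferases in COMPASS were higher for 8 of 10 genes with a median of 0.092, and 0 of them had an unadjusted p under 0.05 with limma. This lead was not kept in every setting: 5 of 10 were higher without mannose 1 (median −0.030) and without water 1 (0.0077), and 6 of 10 with the length trend removed (0.033). All 10 were higher without mannose 3 (0.31) and without water 3 (0.26).

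Among erasers outside the members, rbr-2, the JmjC demethylase of H3K4, had 17.4, 13.3 and 15.9 FPKM in mannose and 8.84, 10.7 and 9.97 in water. Its groups stood well apart, with a log2 difference of 0.60 (standard error 0.17, limma unadjusted p = 0.00999, adjusted p = 0.9999), while the H3K4 writers set-2, set-16 and set-17 overlapped. With the length trend removed the difference of rbr-2 was 0.34 (limma unadjusted p = 0.30). The bromodomain gene lin-49 had 17.9, 14.05 and 14.3 FPKM against 7.49, 10.1 and 9.90, the smallest p of the partner lists (limma unadjusted p = 0.00809, adjusted p = 0.9999). The arginine methyltransferase gene prmt-6 went the other way, with 6.76, 7.70 and 8.55 FPKM in mannose and 9.56, 10.5 and 10.2 in water. The list of other histone and protein methyltransferases had 8 of 10 genes higher with a median of 0.033. That median turned to −0.022 with upper-quartile scaling, −0.024 with the length trend removed and −0.025 without water 1. Counted among the higher genes are pmt-1 (0.050), for a phosphoethanolamine methyltransferase, and blmp-1 (0.17), for a transcription factor, so the list is wider than its name. The list for S-adenosylmethionine and NAD supply was split, 9 of 17 higher, with a median of 0.0035. That median was −0.060 with upper-quartile scaling and −0.11 without mannose 1. The list is mixed, since it also holds acly-1, acly-2 and acs-19 of acetyl-CoA supply and pcyt-1 of phosphatidylcholine synthesis.

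**Figure D5:**
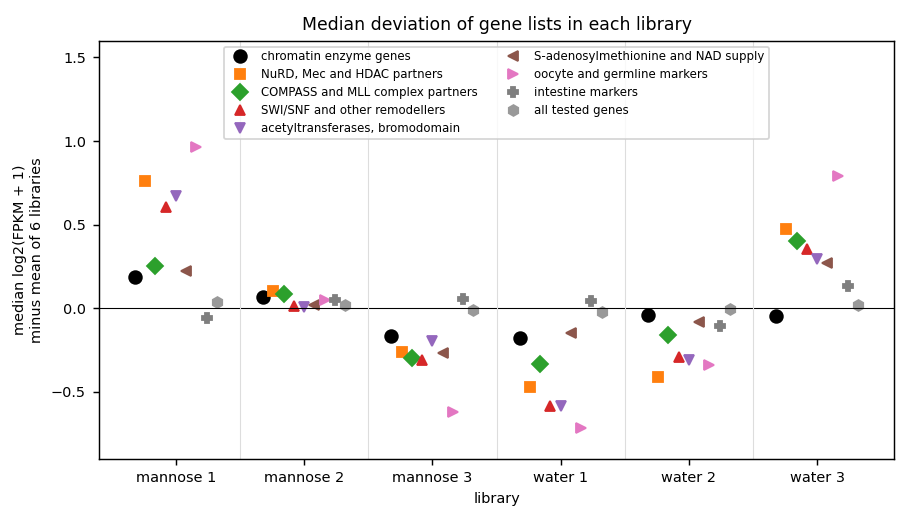
Median deviation from the mean of the 6 libraries, in log2(FPKM + 1) units (y axis), for the 47 tested members, 5 partner lists, 2 marker lists and all tested genes in each library (x axis). Partner lists and the oocyte and germline markers are high in mannose 1 and water 3 and low in mannose 3, water 1 and water 2, while the members lie between −0.18 and 0.18 throughout.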

How the data were processed

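RNA of whole N2 worms was measured in 6 libraries, 3 given D-mannose and 3 given water. Per the submitters' processing notes, cutadapt, FastQC and HISAT2 2.1.0 were used with the genome build WBcel235. Which tool counted reads, and with what strand setting, is not stated in these sources. The authors deposited FPKM, a unit worked out from the numbers themselves: multiplied by gene length, 95.1% to 95.8% of values of up to 20 reads are whole multiples (within 0.05 read) of a step that each library has. The step gives the read equivalents. Positions are those of the deposited tables, and 0 columns were left unused.

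Members, lists and the rule for naming genes were chosen with earlier results of these data known. Values per library are given for members of known role, the 10 with the smallest p, the 5 highest and 5 lowest in level and the 5 widest and 5 narrowest in range, and for up to 2 partners per list with the smallest p. Genes with at least 1 FPKM in at least 3 libraries were tested with limma 3.58.1 (trend and robust, R 4.3.3) on log2(FPKM + 1), which understates the change of low genes. The fit was tested on simulated data with 200 genes changed 2-fold. It recovered 68 to 81 of them per draw with each gene's own spread, and 192 to 199 with the median spread. Changes of that size can thus be missed in genes that vary much. The noise was drawn separately for each gene, so shifts shared by many genes of a library were not simulated. For family sums an exact permutation test, two-sided, was used. Alternatives were a replicate block, another pseudocount, other filters, upper-quartile scaling, limma-voom, leaving out libraries and leaving out overlapping members. Dropping mannose 1 and water 3 together and removing the length trend were added after seeing the data. Overlaps between gene models were taken from the deposited positions, and 14 members overlap an expressed model on the opposite strand. These are hda-2, jmjd-3.2, mes-2, mes-3, set-1, set-6, set-10, set-12, set-24, set-25, set-31, sir-2.2, sir-2.3 and sir-2.4, with set-12 opposite vit-1. Without a stated strand setting their reads cannot be told from those of the opposite model, which limits the values given above for them.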

Additional observations from a re-analysis of the deposited data

How the results depend on the processing

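The count of members called was 0 under each of the 15 alternatives run. Over all genes limma called 0 to 2 when a single library was left out, the 2 without mannose 1, and 0 in every other fit. The median log2 difference of the members was 0.035 with the length trend removed and 0.046 to 0.22 when a single library was left out, against 0.18 in full. The 10 members and the partners with the smallest p kept their sign under each alternative, as did hda-1, mes-1 and sir-2.1. Those of jmjd-5, set-1, set-4 and jmjd-2 did not. That of jmjd-5 was −0.065 with the length trend removed, −0.00025 with limma-voom, −0.060 with upper-quartile scaling and −0.085 without mannose 1 and water 3. That of set-1 was −0.014 with the length trend removed and −0.060 with upper-quartile scaling, and that of set-4 was −0.012 with upper-quartile scaling and −0.030 without mannose 1 and water 3. With single libraries left out they ran from −0.15 to 0.10 for jmjd-5, −0.088 to 0.10 for set-1, −0.063 to 0.11 for set-4 and −0.71 to 0.51 for jmjd-2. The difference of the set gene sums was 6.32 FPKM with upper-quartile scaling. The cause of these shifts was not tested. The replicate numbers do not pair the libraries: deviations from the group means correlated at −0.743, 0.240 and −0.712 over all tested genes between libraries of the same number. With the replicate number as a block 0 genes and 0 members were called, 164 genes had an unadjusted p under 0.05 in place of 532, and the members' median was 0.18. The exact permutation test of family sums cannot go below p = 0.1, and members under 1 FPKM rest on few reads.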
